A study of Rattus norvegicus with 16 samples.

Results

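The step from 3 to 6 h after a cortical contusion was measured on 6 of the 16 Affymetrix rat arrays of a time course: the 3 arrays of cortex taken 6 h after injury were set against the 3 arrays taken 3 h after it. All animals were male Wistar rats, 8 weeks old, that had a craniectomy over the right parietal cortex with an adapter cemented to the skull 48 h earlier, and this preparation is shared by injured and sham groups. Injury was a moderate fluid percussion from the side, in which a pulse of pressurised saline strikes the exposed dura and bruises the cortex beneath, and sham animals had the same surgery without an injuring pulse. The contused cortex was removed after perfusion with saline, polyadenylated RNA was extracted, and the injured series held 3 arrays at each of 3, 6, 12 and 48 h and the shams 1 array at each time. Shams took no part in the test of the step, and the 3 shams at 3, 6 and 12 h (the early shams) were used only to place levels. Whether the arrays are separate animals is not stated in the labels, so p-values measure the spread between arrays, which may be partly technical.

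Contused cortex responds in waves. Within the first hours, resident glia, neurons and vessel cells switch on immediate early genes, such as Fos and Egr1, and the first cytokines, such as interleukin-1 and tumour necrosis factor. These signals induce further genes in neighbouring cells: acute-phase proteins through STAT3, antiviral and GTPase genes through interferon-activated factors, and adhesion molecules on vessels, which recruit neutrophils from the blood. Because whole tissue was measured, fewer cells of a type and less RNA per cell cannot be told apart in any result here.

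The deposited values are log2 levels from the RMA method, each probe set shifted so that its median over the 16 arrays is 0, so a level of 1 is 2-fold above that median, and levels of different genes cannot be compared. The same shift removes absolute levels, so the tissue label could not be checked by the abundance of cortical markers. Probe sets with 1 gene symbol were averaged into 14218 genes, and the step was the mean of the 6 h arrays minus the mean of the 3 h arrays. A gene was called when its limma p, adjusted by Benjamini-Hochberg over all genes, was under 0.05. The standard deviation over genes ran from 0.199 to 0.238 in the 6 arrays of the step, and was wider in 1 array each at 12 h (0.372) and 48 h (0.387), which enter only through the estimate of the spread.

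Between 3 and 6 h, 97 genes changed, 0.682% of those tested. Higher at 6 h were 64 genes (0.45%), with a median difference of 0.86 and a range of 0.35 to 5.24, and 28 of them rose at least 2-fold. Lower at 6 h were 33 genes (0.232%), with a median of -0.75, and 7 of them fell at least 2-fold. The median over all genes was -0.01. The rises were led by the calprotectin genes S100a8 and S100a9, the decoy receptor Il1r2, lipocalin 2 and interferon-inducible GTPases. Il1a, the microglial receptor P2ry12 and the vessel genes Tek and Cldn5 were among the largest falls. At an unadjusted p under 0.05 there were 1970 genes (13.9%), so the calls are a small part of the genes that differed nominally. For all 97 called genes the 3 arrays of one time lay wholly on one side of the 3 arrays of the other, an arrangement found in 13.1% of all genes upward and 12.6% downward.

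**Figure D1:**
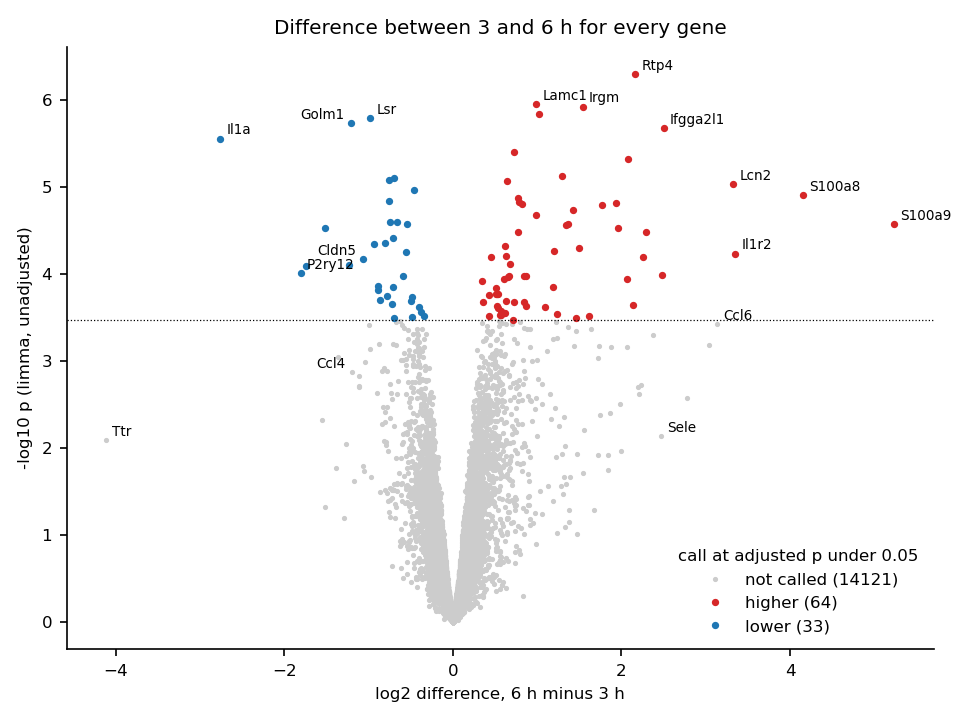
Log2 difference between 6 and 3 h (x axis) against -log10 of the unadjusted limma p (y axis) for every gene, 3 arrays a time. The dotted line marks the lowest called gene; the 64 genes called higher (red) reach 5.24 for S100a9 and the 33 called lower (blue) reach -2.76 for Il1a, while Ttr, at -4.11, was not called.

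The largest rises were genes that neutrophils carry in bulk. S100a9 and S100a8, the subunits of the neutrophil cytosolic protein calprotectin, stood at -0.99, -0.90 and -0.32 (S100a9) in the 3 h arrays and at 3.45, 5.51 and 4.54 in the 6 h arrays. S100a8 stood at -0.52, -0.39 and -0.24 at 3 h and at 2.54, 4.91 and 3.85 at 6 h. Every 6 h array was far above every 3 h array, and the 3 h means of both genes lay inside the range of the early shams. For S100a9 those shams read -1.46 to -0.54, and 1 of the 3 h arrays, replicate 3, was above them. The differences were 5.24 ± 0.78 (SE, n = 3 against 3, adjusted p = 0.0127) for S100a9, a 37.7-fold rise, and 4.15 ± 0.57 (adjusted p = 0.0101) for S100a8, a 17.8-fold rise. Il1r2, a decoy receptor that binds interleukin-1 without signalling and is abundant on neutrophils, went from -0.20, -0.28 and -0.17 to 1.75, 3.86 and 3.79, a difference of 3.35 ± 0.54 (adjusted p = 0.0194). Replicate 1 was the lowest of the 6 h arrays for all of these genes.

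Of the neutrophil list, 8 genes of 16 were measured, 2 were called higher (0.45% of all genes were) and none lower, and the median was 0.60 against -0.01 over all genes. No other member was called. Among these were the receptors Cxcr2 (0.64, adjusted p = 0.404) and Csf3r (0.60, adjusted p = 0.614), the collagenase Mmp8 (0.60, adjusted p = 0.101) and the granule peptide Camp (0.17, adjusted p = 0.655), named after their values were seen. The lowest difference in the list was 0.003. The mean level of the 6 measured neutrophil markers ran from -0.41 to -0.23 in the 3 h arrays, inside the early shams (-0.52 to -0.23), and from 0.97 to 2.10 in the 6 h arrays. That mean rests mainly on S100a8 and S100a9. Its part in the rises of Il1r2 and of other genes that neutrophils express was not tested.

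Of the reactive astrocyte list, 5 of 24 measured genes rose, against 0.45% of all genes. Whole tissue was measured, so which cells account for these rises, Lcn2 included, was not tested. Lcn2, the iron-siderophore binding protein lipocalin 2, read -4.16, -2.88 and -2.22 at 3 h and 0.06, 0.71 and -0.06 at 6 h. The highest 3 h array stayed more than 2 log2 units under the lowest 6 h array, and the difference was 3.32 ± 0.44 (adjusted p = 0.00891), a 10-fold rise. Gfap, the intermediate filament of astrocytes, read -1.29, -1.22 and -0.74 at 3 h and -0.06, 0.06 and 0.47 at 6 h, a difference of 1.24 ± 0.24 (adjusted p = 0.047). Relative to the early shams its mean was -0.40 at 3 h and 0.84 at 6 h, and neither was called. Replicate 3 of the 3 h arrays lay inside the range of the shams.

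S1pr3, a receptor for sphingosine-1-phosphate, rose by 2.29 ± 0.35 (adjusted p = 0.0136), from -1.70, -0.70 and -0.25 to 1.25, 1.42 and 1.56. The transcription factor Stat3, which carries signals of the interleukin-6 family, rose by 1.09 ± 0.21 (adjusted p = 0.0416), and all its 3 h arrays (-0.54, -0.09 and -0.05) already lay above the early shams (-0.69 to -0.64). Timp1, the inhibitor of matrix metalloproteinases, rose by 2.49 ± 0.43 (adjusted p = 0.0271), from -3.16, -1.91 and -1.64 to 0.03, 0.33 and 0.39. The 6 h sham was itself higher than the 3 h sham for Timp1, at -0.74 against -2.61, which is a step of 1.87 without injury.

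The 5 members called higher were Lcn2, Timp1, S1pr3, Gfap and Stat3, none was called lower, and 14 of the 24 had every 6 h array above every 3 h array (13.1% of all genes did). The list's median of 0.75 was the highest of the 28 function lists. Members with large but uncalled differences, named after their values were seen, were the protease inhibitor Serpina3n (2.77, adjusted p = 0.111), the hyaluronan receptor Cd44 (2.06, adjusted p = 0.0626) and the small heat shock protein Hspb1 (1.72, adjusted p = 0.206). For Serpina3n the 3 h arrays read -1.63, -1.68 and -1.24, against -1.56 to -1.42 in the early shams, and the 6 h arrays 1.72, 0.75 and 1.30. The general astrocyte markers had a median of -0.11, with Gfap the 1 called member of 12 (0.45% of all genes were called higher).

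**Figure D2:**
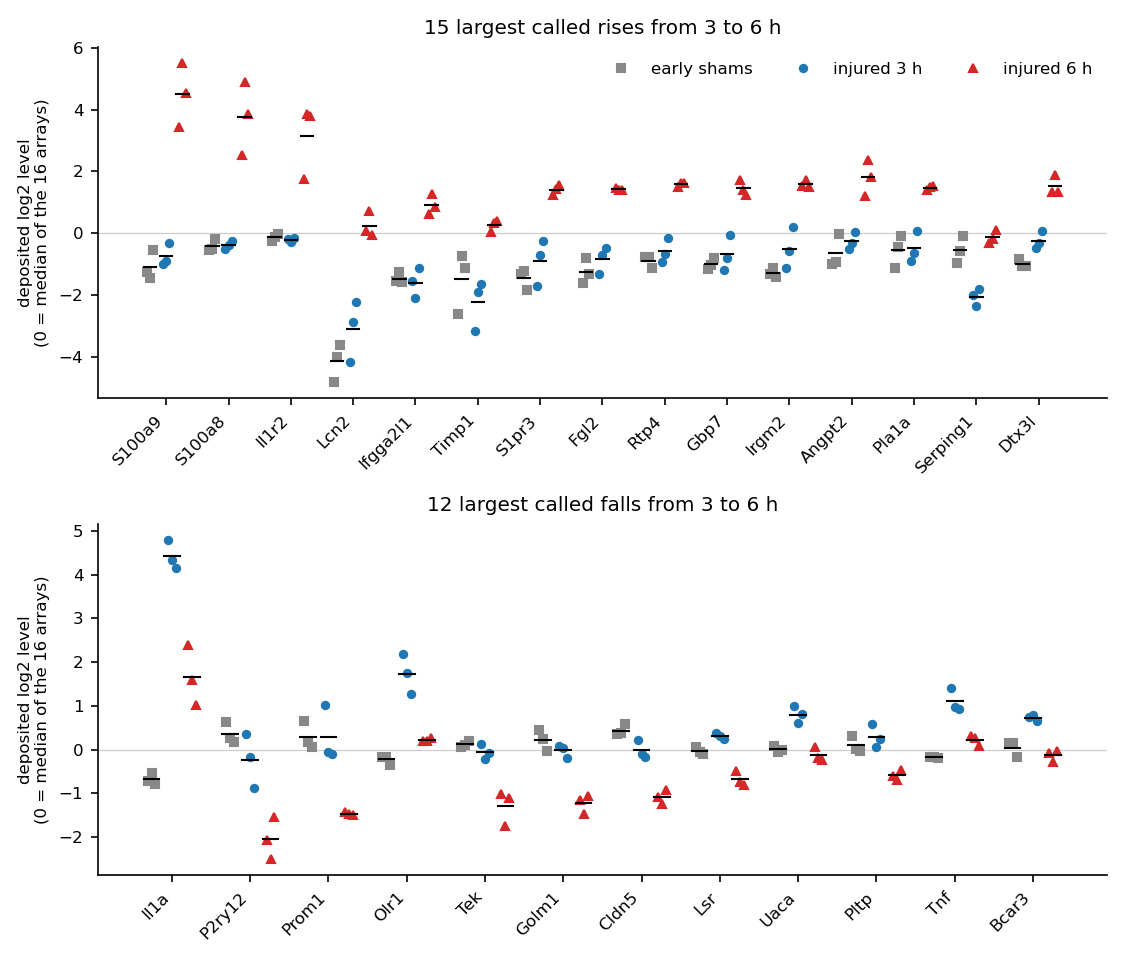
Deposited log2 level (y axis, 0 is the median of the 16 arrays) of the 15 largest called rises (top) and the 12 largest called falls (bottom) in each early sham (grey squares), 3 h (blue circles) and 6 h (red triangles) array, with black bars for the mean of 3 arrays. The 3 h means of S100a9, S100a8 and Il1r2 lie inside the range of the shams, while the 3 h arrays of Il1a (4.14 to 4.80) sit far above them and its 6 h arrays (1.03 to 2.39) lie between.

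Of the 38 measured interferon response genes, 6 rose, and further interferon-inducible genes outside that list were among the 64 rises. Rtp4, an interferon-induced restrictor of viral replication, read -0.93, -0.66 and -0.14 at 3 h and 1.49, 1.63 and 1.63 at 6 h. Its difference was 2.16 ± 0.22 (adjusted p = 0.00433), with an SD of 0.40 between the 3 h arrays and 0.08 between the 6 h arrays. The immunity-related GTPases, which attack the vacuoles of intracellular pathogens, rose together: Ifgga2l1 by 2.50 ± 0.29 (adjusted p = 0.00433), Irgm2 by 2.08 ± 0.26 (adjusted p = 0.00691) and Irgm by 1.54 ± 0.17 (adjusted p = 0.00433). Irgm went from -0.72, -0.53 and -0.04 to 1.06, 1.35 and 0.92, and Ifgga2l1 from -1.54, -2.11 and -1.14 to 0.61, 1.26 and 0.85. Neither gene's arrays overlapped between the times. The guanylate-binding protein gene Gbp7 rose by 2.13 ± 0.41 (adjusted p = 0.0411), from -1.19, -0.79 and -0.07 to 1.73, 1.39 and 1.23.

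Antiviral effectors and their regulators rose as well. Rsad2, which encodes the antiviral enzyme viperin, went from 0.01, -0.44 and -0.01 to 1.59, 1.66 and 1.15 (1.61 ± 0.32, adjusted p = 0.047). Isg15, a ubiquitin-like modifier, went from -0.36, -0.46 and -0.07 to 0.82, 1.35 and 1.23 (1.43 ± 0.21, adjusted p = 0.011), and Usp18, the protease that removes it and damps interferon receptor signalling, rose by 1.19 ± 0.21 (adjusted p = 0.0324). Irf9, the DNA-binding part of the factor that type I interferon activates, rose by 1.37 ± 0.20 (adjusted p = 0.0127). The partners Dtx3l and Parp9, a ubiquitin ligase and an ADP-ribosyltransferase that act together in interferon responses, rose by 1.77 ± 0.25 (adjusted p = 0.0101) and 1.5 ± 0.24 (adjusted p = 0.0179). Eif2ak2, the kinase PKR that senses double-stranded RNA, rose by 0.82 ± 0.12 (adjusted p = 0.0101), with a sham step of 0.45 in the same direction, and the peptide transporter Tap1 by 0.56 ± 0.11 (adjusted p = 0.047), although its 2 probe sets disagreed (-0.03 and 1.15). Irf9, Parp9, Eif2ak2 and Tap1 were picked for this account after their values were seen.

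The 6 list members called higher (0.45% of all genes were) were Rsad2, Irgm, Isg15, Irf9, Usp18 and Tap1, and none was called lower. Of the 38 measured, 25 had non-overlapping arrays upward and 3 downward (13.1% and 12.6% of all genes). The list's median was 0.55. It did not move as a block: Mx1 (0.25), Ifit1 (0.30) and Stat2 (0.17) had small differences, and the myeloid factor Irf8 had one of -0.71 (adjusted p = 0.299). Gbp2 (2.21, adjusted p = 0.106) and the chemokine Cxcl10 (1.37, adjusted p = 0.414), 2 other interferon-inducible genes, were already above all early shams in every 3 h array. Gbp2 spread from -1.71 to 0.99 between the 3 h arrays, and Cxcl10 from -0.21 to 0.92. Irf7, a later amplifier of the response, had a difference of 0.61 (adjusted p = 0.0672).

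The promoters of these genes are shown because several of the rising genes carry the same short element. In the RefSeq GRCr8 promoters, from 250 bases before to 50 after the gene start, the interferon-stimulated response element, searched on both strands as 2 copies of GAAA separated by 2 bases of any kind, was found in 10 of the 47 higher genes that have an entry (21.3%) and in 1 of 25 lower genes (4.00%). It was found in 350 of all 11701 measured genes with an entry (2.99%), and in 19 of 30 genes of the interferon list (63.3%). The 10 genes were Ahctf1, Dtx3l, Eif2ak2, Gbp7, Ifgga2l1, Il18bp, Irgm, Irgm2, Rsad2 and Tap1. An NF-kB element, searched on both strands as GGGA and TTTCC with 1 base of any kind between them, was found in 1 of the 47 (Tap1; 0.41% of all genes), and a STAT element, searched as TTCCNGGAA on both strands, in 3 (Ccdc71l, Gbp7 and Ubr7; 6.38% against 1.25% of all genes). A match is a description of the letters in the window and not a measured binding site. Stretches of 60 bases upstream of the start follow for 6 genes, 5′ to 3′ on the gene's strand, with the match to the response element in capitals.
Rsad2, chr6:48788233-48788292, minus strand: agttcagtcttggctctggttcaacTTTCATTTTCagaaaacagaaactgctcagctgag
Irgm, chr10:33742579-33742638, minus strand: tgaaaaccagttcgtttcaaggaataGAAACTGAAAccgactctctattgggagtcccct
Irgm2, chr10:42889843-42889902, plus strand: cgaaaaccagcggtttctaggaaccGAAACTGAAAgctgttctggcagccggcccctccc
Gbp7, chr2:233948823-233948882, plus strand: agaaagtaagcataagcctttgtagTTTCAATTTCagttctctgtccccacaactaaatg
Eif2ak2, chr6:21941094-21941153, plus strand: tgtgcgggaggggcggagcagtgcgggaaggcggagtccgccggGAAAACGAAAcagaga
Tap1, chr20:4668630-4668689, minus strand: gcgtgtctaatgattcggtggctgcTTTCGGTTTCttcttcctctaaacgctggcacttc
Irgm and Irgm2 carry the same 10 letters in capitals, and in Rsad2, Gbp7 and Tap1 the element lies on the opposite strand. The match begins 34 bases before the start in Irgm, 102 in Irgm2 and 16 in Eif2ak2.

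Among the first cytokines, Il1a and Tnf receded, whereas Il1b and Il6 were high at both times and were not called. Il1a, the alpha form of interleukin-1, stood at 4.80, 4.34 and 4.14 in the 3 h arrays and at 2.39, 1.595 and 1.025 in the 6 h arrays. It fell by 2.76 on the log2 scale (SE 0.33, adjusted p = 0.00495), a 6.76-fold drop, and its 6 h arrays were still well above the early shams (-0.78 to -0.53). Tnf stood at 1.42, 0.99 and 0.93 at 3 h and at 0.31, 0.28 and 0.09 at 6 h, a difference of -0.88 ± 0.16 (adjusted p = 0.0333). Its 2 probe sets both fell, by unequal amounts (-1.49 and -0.28). Its 6 h arrays also remained above the shams (-0.19 to -0.16), but that difference was not called (0.40, adjusted p = 0.215).

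Il1b, the beta form, read 2.50, 2.66 and 2.43 at 3 h and 2.44, 3.17 and 2.21 at 6 h, and the times overlapped (0.08 ± 0.42, adjusted p = 0.961). Il6 read 2.25, 2.66 and 2.81 against 3.46, 3.57 and 2.24, which also overlap (0.52 ± 0.31, adjusted p = 0.509). Of 25 measured cytokines, 2 were called lower (Il1a and Tnf; 0.232% of all genes were called lower) and none higher. The inhibitors of cytokine signals moved the other way in part: beside Il1r2, Il18bp, which captures interleukin-18, rose by 0.84 ± 0.15 (adjusted p = 0.0271), while the receptor antagonist Il1rn had a difference of 0.53 ± 0.25 (adjusted p = 0.366). Of 28 measured cytokine receptors, decoys and SOCS inhibitors, Il1r2 and Il18bp were called higher (0.45% of all genes were) and none lower. In that list 17 had non-overlapping arrays upward and 1 downward (13.1% and 12.6% of all genes), and the median was 0.32.

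No chemokine of the 28 measured was called in either direction, and their differences ran from -1.19 to 3.13. The monocyte attractant Ccl2 read -0.32, 0.49 and 0.76 at 3 h and 1.79, 1.87 and 1.70 at 6 h, with shams at -5.64 to -5.02, and its difference of 1.48 ± 0.82 had an adjusted p of 0.468. Ccl4 read 3.41, 3.84 and 3.99 and then 2.45, 2.72 and 2.49 (-1.19 ± 0.28, adjusted p = 0.0813), and the related Ccl3 had a difference of -0.69 ± 0.34 (adjusted p = 0.399). The neutrophil attractants Cxcl1 (0.58 ± 0.63, adjusted p = 0.755) and Cxcl2 (-0.55 ± 0.49, adjusted p = 0.685) overlapped between the times. Ccl6, named after its value was seen, just missed the threshold (3.13 ± 0.63, adjusted p = 0.0506).

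Many immediate early genes had lower levels at 6 h, but none passed the test. Of 33 measured, 15 had every 6 h array under every 3 h array, against 12.6% of all genes, 4 had the reverse, against 13.1%, and the median was -0.13. Egr1 read 1.17, 0.96 and 0.56 at 3 h and -0.09, -0.51 and -0.04 at 6 h, with early shams at -0.41 to 0.04 and a difference of -1.11 ± 0.28 (adjusted p = 0.0968). Fos had a difference of -0.36 ± 0.12 (adjusted p = 0.199), with 2 probe sets of opposite sign (-0.90 and 0.17), and Arc, a neuronal activity gene, one of 0.22 ± 0.45 (adjusted p = 0.888). Fosb (-1.29, adjusted p = 0.399) and Nr4a1 (-0.87, adjusted p = 0.304) had larger differences downward, whereas Fosl1 (1.26, adjusted p = 0.152) and Myc (0.94, adjusted p = 0.142) had differences upward; these genes were named after their values were seen. The list's median between the 3 and 6 h shams was -0.12, nearly that of the injured step.

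Genes of the vessel wall split. Angpt2, which endothelium releases on activation and which opposes signalling through the receptor Tie2, rose by 2.07 ± 0.36 (adjusted p = 0.0279), from -0.52, -0.31 and 0.04 to 1.20, 2.38 and 1.83. Tek, the gene of Tie2 itself, fell by 1.24 (SE 0.21, adjusted p = 0.0233), from 0.14, -0.21 and -0.07 to -1.01, -1.74 and -1.10. Cldn5, the main tight-junction protein of brain endothelium, fell by 1.07 (SE 0.18, adjusted p = 0.0204), from 0.22, -0.09 and -0.17 to -1.08, -1.25 and -0.92. In both falling genes every 6 h array lay under every early sham.

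The endothelial transcription factor Sox17 fell by 0.54 (SE 0.08, adjusted p = 0.0127), although its 3 probe sets did not weigh in alike: the call was lost when the median of probe sets replaced the mean (adjusted p = 0.585). Lsr, a protein of tricellular junctions, fell by 0.98 (SE 0.11, adjusted p = 0.00433), and Acvrl1, an endothelial receptor for BMP ligands, by 0.70 (SE 0.09, adjusted p = 0.00868). Both were above all early shams in every 3 h array and below them in every 6 h array. Prom1, a membrane protein of progenitor and epithelial cells, fell by 1.75 (SE 0.29, adjusted p = 0.0234), and Pltp, which transfers phospholipids between lipoproteins, by 0.89 (SE 0.16, adjusted p = 0.0318). The laminin gamma chain gene Lamc1, of the basement membrane, rose by 0.99 ± 0.11 (adjusted p = 0.00433).

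Of 21 measured blood-brain barrier genes, 3 were called lower (Tek, Cldn5 and Sox17; 0.232% of all genes were) and none higher. In this list 8 had non-overlapping arrays downward and 1 upward (12.6% and 13.1% of all genes), and the median was -0.18. Of 20 endothelial adhesion and activation genes, Angpt2 alone was called (0.45% of all genes were called higher). Sele, the selectin that captures rolling leukocytes, ran from -1.55 to 2.58 among the 3 h arrays and from 3.13 to 3.23 among the 6 h arrays, so its difference of 2.47 ± 0.76 was not called (adjusted p = 0.171). The mean level of 11 endothelial markers, which include Tek and Cldn5, ran from -0.16 to 0.20 in the 3 h arrays and from -0.63 to -0.45 in the 6 h arrays, with early shams at -0.08 to 0.09. Its part in the falls of Tek, Cldn5 and Sox17 was not tested. The 11 markers had a median difference of -0.28 and ran from -1.55 to 0.24, with 7 below 0 and 4 above. Non-overlapping arrays were found downward in 5 (12.6% of all genes) and upward in 0 (13.1%). Pecam1 (-0.11), Flt1 (0.16) and Kdr (0.24) were among those with small differences.

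Microglial genes of the resting state fell in part. P2ry12, the receptor by which resting microglia sense extracellular nucleotides, read 0.36, -0.18 and -0.88 at 3 h and -2.07, -2.50 and -1.55 at 6 h. The fall was -1.8 (SE 0.31, adjusted p = 0.0271), a 3.49-fold drop, and all 6 h arrays were far below the early shams (0.18 to 0.63). Tgfbr1, a receptor for TGF-beta, which maintains that state, fell by 0.76 (SE 0.11, adjusted p = 0.0101). Its 2 probe sets both fell, by unequal amounts (-1.13 and -0.38). Its arrays went from above to below every early sham, but it was called against them neither at 3 h (adjusted p = 0.18) nor at 6 h (adjusted p = 0.0789). Of 18 measured resting microglia genes, P2ry12 and Tgfbr1 were called lower (0.232% of all genes were) and none higher. Non-overlapping arrays were found downward in 7 and upward in 1 (12.6% and 13.1% of all genes), and the median was -0.28. Tmem119 (-1.11, adjusted p = 0.0957) and Gpr34 (-0.99, adjusted p = 0.0506) were not called, Cx3cr1 had a difference of -0.19 and Itgam one of 0.39. The list's median between the 3 and 6 h shams was -0.21.

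Serping1 and C1s, of the early complement cascade, rose from 3 h arrays that all lay below the early shams. Serping1, the C1 inhibitor, read -1.99, -2.37 and -1.82 at 3 h, under every early sham (-0.95 to -0.10), and -0.31, -0.18 and 0.10 at 6 h, a rise of 1.93 ± 0.27 (adjusted p = 0.0101). C1s, the protease that it blocks, rose by 0.87 ± 0.17 (adjusted p = 0.0411) from arrays that were also all below the shams. Against early shams at 3 h, Serping1 was called lower (-1.51, adjusted p = 0.0287) and C1s was not called (-0.59, adjusted p = 0.177). The other 22 of 24 measured complement and antigen presentation genes were not called (0.45% of all genes were called higher), and the list's median was 0.08.

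Survival and stress genes contributed single rises. Casp4, the inflammatory caspase that detects cytosolic lipopolysaccharide, rose by 1.20 ± 0.19 (adjusted p = 0.019). Sod2, the mitochondrial superoxide dismutase, rose by 0.79 ± 0.11 (adjusted p = 0.0101), and the zinc and iron importer Slc39a14 by 0.52 ± 0.10 (adjusted p = 0.036). Fgl2, a membrane prothrombinase of activated leukocytes and endothelium, rose by 2.26 ± 0.37 (adjusted p = 0.02), and the phospholipase gene Pla1a by 1.96 ± 0.30 (adjusted p = 0.013). Marchf3, a ubiquitin ligase gene, rose by 1.29 ± 0.17 (adjusted p = 0.00868). Of 26 measured p53 target and cell death genes Casp4 alone was called (0.45% of all genes were called higher) and 15 had non-overlapping arrays upward (13.1% of all genes did), and of 22 antioxidant, haem and metal-binding genes Sod2 and Slc39a14 were called. Hmox1, haem oxygenase 1, spread from -1.83 to 0.16 between the 3 h arrays and was not called (1.24 ± 0.68, adjusted p = 0.463).

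Genes for making ribosomes had small differences, mostly in one direction. Of 23 measured, 2 were called higher (0.45% of all genes were), none was called lower, 15 had every 6 h array above every 3 h array (13.1% of all genes did), and the median was 0.29. Pprc1, a coactivator of nuclear respiratory and growth genes, rose by 0.53 ± 0.10 (adjusted p = 0.0411), from 0.02, -0.07 and -0.20 to 0.43, 0.45 and 0.46. Gnl3, the nucleolar GTPase nucleostemin, rose by 0.46 ± 0.08 (adjusted p = 0.02), and the 6 h sham was 0.25 above the 3 h sham. Outside the list and chosen after their values were seen, the ribosome assembly genes Urb1 (0.73 ± 0.09, adjusted p = 0.0063), Gtpbp4 (0.72 ± 0.14, adjusted p = 0.0393) and Ltv1 (0.52 ± 0.09, adjusted p = 0.0327) rose, with sham steps of 0.31, 0.21 and 0.36. These sham steps come from 1 array at each time.

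Some neuronal receptor genes fell. Of 32 measured glutamate and GABA receptor subunits, Grik1, a kainate receptor subunit, fell by 0.78 (SE 0.14, adjusted p = 0.0364) and Grin3a, an NMDA receptor subunit, by 0.59 (SE 0.10, adjusted p = 0.0271). These 2 calls compare with 0.232% of all genes called lower. None rose, 8 of the 32 had non-overlapping arrays downward (12.6% of all genes did), and the median was -0.09. Id4, an inhibitor of helix-loop-helix factors that neural progenitors and astrocytes express, fell by 0.70 (SE 0.14, adjusted p = 0.0484) and was the 1 called member of 25 Id, Hes and SMAD target genes. Among the lists for heat shock, the unfolded protein response, cholesterol synthesis, hypoxia and glycolysis, prostaglandins, growth factors, glucocorticoid response, cell cycle, potassium channels, the respiratory chain and feedback inhibitors of NF-kB and MAP kinase, no member was called. Vegfa, the vascular growth factor, had a difference of -0.04 ± 0.12 (adjusted p = 0.93).

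**Figure D3:**
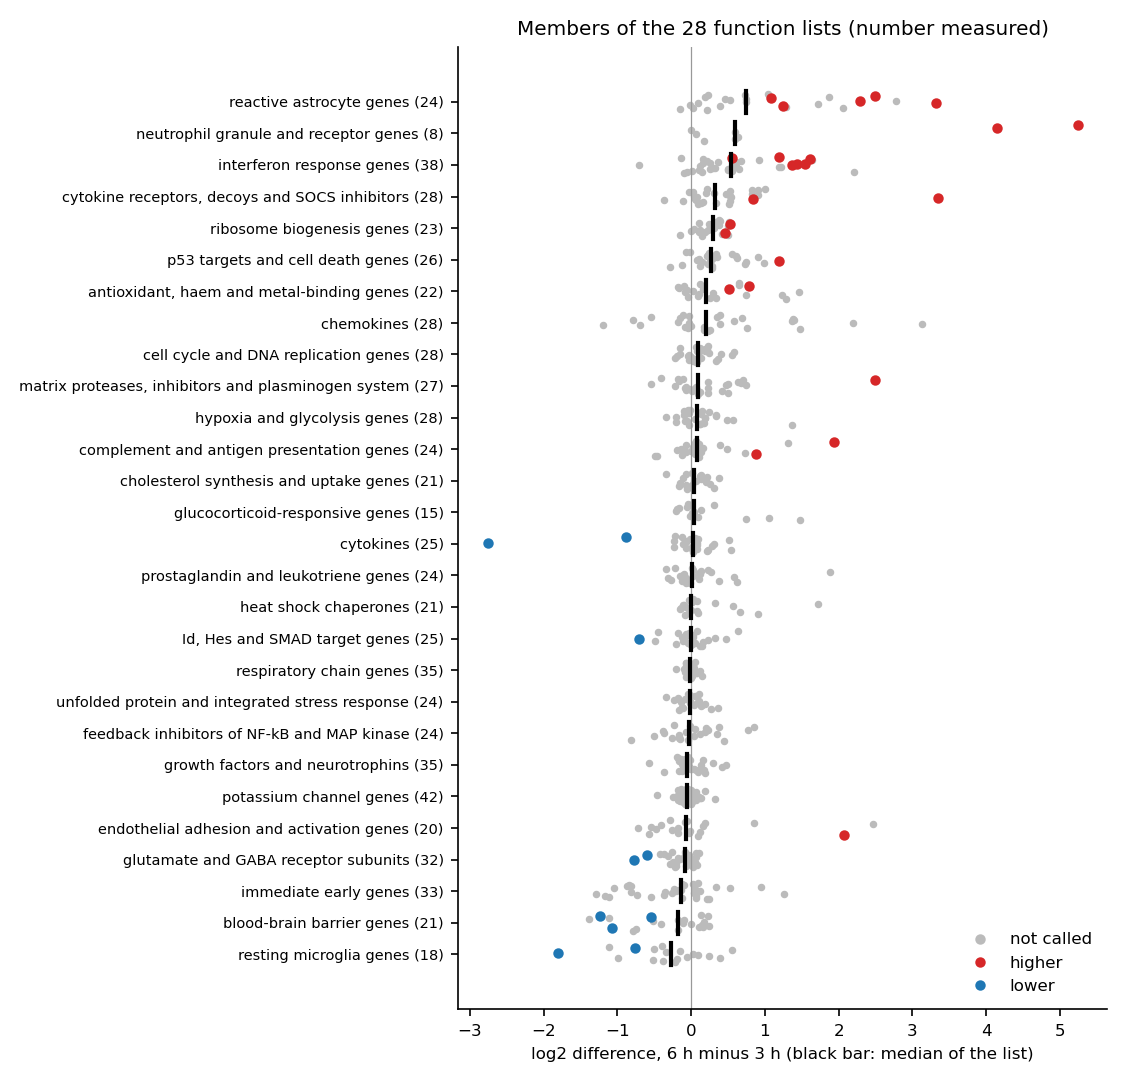
Log2 difference between 6 and 3 h (x axis) of each measured member of the 28 function lists (rows, with the number measured), with members called higher in red, called lower in blue and not called in grey, and the list's median as a black bar. Medians run from -0.28 for resting microglia genes to 0.75 for reactive astrocyte genes, and most lists hold few called members.

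Set against the early shams, some called genes had sham-like levels at 3 h, some were already above the shams and some were already receding, and others lay in none of these classes; the 3 and 6 h arrays are shared with the step, so these positions are descriptions. Of the 64 higher genes, 24 had a 3 h mean inside the range of the early shams, against 52.3% of all genes, so nothing is read from this count. Among the 24 were S100a9, S100a8, Il1r2, Fgl2, Angpt2, Isg15, Usp18 and Lamc1. Another 7 had every 3 h array above every early sham, as 7.48% of all genes did (Irgm2, Dtx3l, Spidr, Tmbim1, Stat3, Akap12 and Sod2). In 11, Serping1, C1s and Urb1 included, every 3 h array lay below them, a count given without a share of all genes and not read further. In the fit of all 16 arrays, 43 of the 64 were called higher than early shams at 6 h (1.98% of all genes) and none at 3 h (0.485%).

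The receding genes were those that fell from 3 h arrays that all lay above the early shams, 15 of the 33, with 7.48% of all genes lying so at 3 h. Only 6 of the 15 were called higher than early shams at 3 h (0.485% of all genes): Il1a, Olr1, Uaca, Tnf, Dpyd and Nkd1. For the others a rise before 3 h was not called, and the lowest 3 h array of Grik1 (0.65) barely passed the highest sham (0.64). Beside Il1a and Tnf the receding genes included the following. Olr1, the scavenger receptor for oxidised lipoprotein, read 2.19, 1.75 and 1.27 at 3 h and 0.19, 0.19 and 0.27 at 6 h, a fall of 1.52 (SE 0.23, adjusted p = 0.013). Uaca, a regulator of apoptosis, fell by 0.93 (SE 0.15, adjusted p = 0.0172), the adaptor gene Bcar3 by 0.86 (SE 0.16, adjusted p = 0.0393) and Dpyd, the enzyme that breaks down pyrimidines, by 0.66 (SE 0.10, adjusted p = 0.0127). Grik1, Lsr, Tgfbr1, Acvrl1, Armh4, Gjc1, Nsun6, Nkd1 and Klhl14 made up the rest. At 6 h, Il1a, Olr1 and Tnf were still above every early sham in all arrays, whereas Lsr, Tgfbr1, Acvrl1, Armh4, Gjc1 and Nkd1 were below them in all. Of the first 3, only Il1a was called higher than early shams at 6 h (1.98% of all genes were). Of the other 6, only Lsr and Acvrl1 were called lower (0.682% of all genes were). The share of all genes with such positions at 6 h was not counted, so they are not read further. Golm1, a Golgi membrane protein gene, was not among the receding genes: it fell by 1.21 (SE 0.14, adjusted p = 0.00433) from sham level, as did Prom1 and Pltp.

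The 12 h arrays are outside the step's means, though they add to its estimate of spread, and they give these genes' later course. Of the 64 higher genes, 50 were called higher at 12 h than early shams (3.49% of all genes) and 63 had a 12 h mean above the sham mean (45.8% of all genes). Their median relative to early shams was -0.08 at 3 h, 0.78 at 6 h and 0.93 at 12 h. Of the 33 lower genes, 14 were called lower than early shams at 12 h (1.38%) and 29 had a 12 h mean under the sham mean (53.6%), with medians of 0.25, -0.39 and -0.36. Il1a, at 0.66 above the shams, was no longer called at 12 h, while Lcn2 had gone on to 5.69 and Isg15 to 2.74. Olr1 was called against the shams neither at 6 h (0.44, adjusted p = 0.374) nor at 12 h (0.31). One of the 12 h arrays is the wide one described above.

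**Figure D4:**
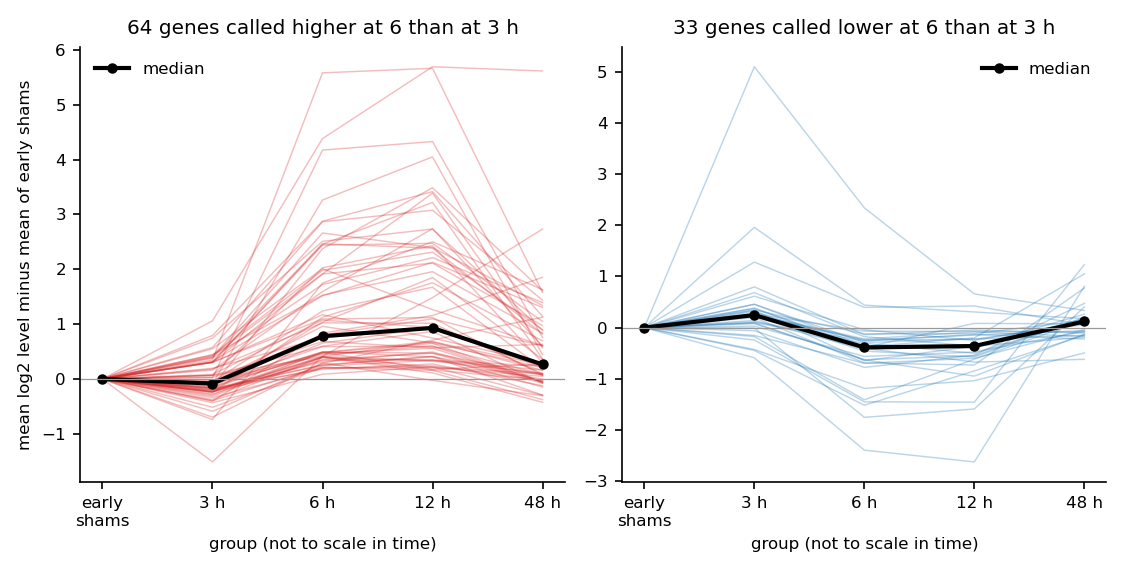
Mean log2 level of each called gene minus its mean over the early shams (y axis) in the groups along the x axis, for the 64 higher (left) and 33 lower genes (right), with the median in black. The median of the higher genes goes from -0.08 at 3 h to 0.78 at 6 h, 0.93 at 12 h and 0.27 at 48 h, and that of the lower genes from 0.25 to -0.39, -0.36 and 0.12; the 3 and 6 h means are those that chose the genes.

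Shams gave 1 array at each time, so time since surgery could be set beside the injured step without replicates. The 6 h sham was above the 3 h sham for 47 of the 64 higher genes (43% of all genes) with a median of 0.20, and below it for 24 of the 33 lower genes (54.8% of all genes) with a median of -0.13. For 11 higher genes (Timp1, Eif2ak2, Zfp654, Mylip, Trmt10c, Pinx1, Rprd1b, Pus3, Ltv1, Gnl3 and Trim65) and 5 lower genes (Pstk, Fzd2, Cyp4f1, Nkd1 and Ccdc120) the sham step was at least 50% of the injured step. All 97 genes kept their direction when the sham step was subtracted. By limma, none of the 97 was called for the difference between the injured and the sham step (1 of all genes was, 0.00703%). At an unadjusted p under 0.05 there were 38 of the 64 and 20 of the 33 (3.35% of all genes), but the injured step that chose these genes is a term of the difference, so nothing is read from these counts or from the kept direction. Among the genes with the largest steps, the sham step was -0.21 for S100a9, 0.04 for S100a8, 0.11 for Il1r2, 0.83 for Lcn2 and 0.18 for Il1a. It was 0.81 for Fgl2 and 0.67 for Pla1a.

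**Figure D5:**
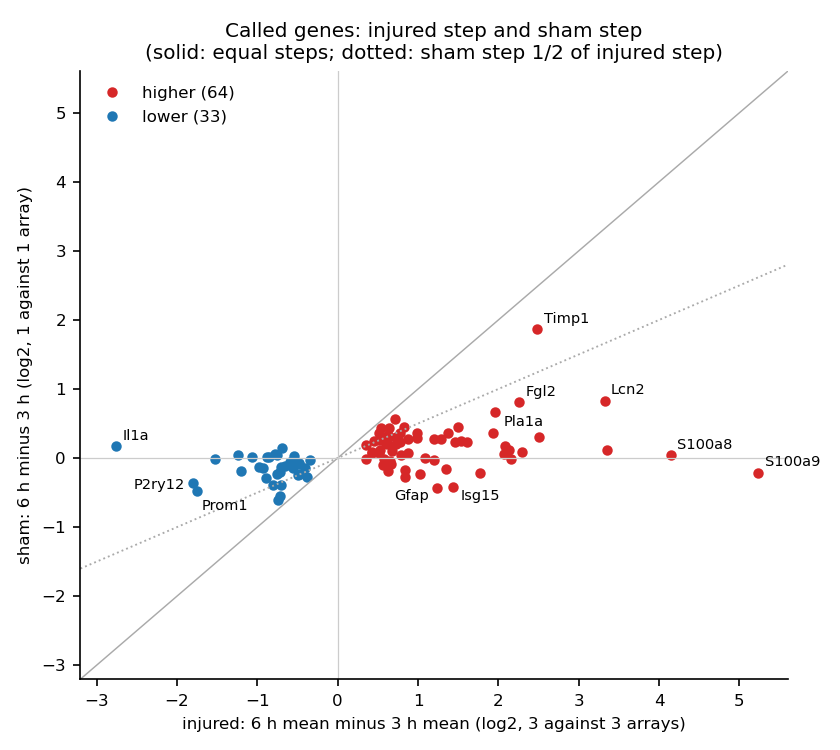
Injured step (x axis, 3 arrays against 3) against sham step (y axis, 1 array against 1), both log2 6 h minus 3 h, for the 64 higher (red) and 33 lower (blue) genes, with a solid line for equal steps and a dotted line for a sham step of 50%. Most points lie near a sham step of 0, and Timp1, at 2.49 and 1.87, lies above the dotted line.

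The number of calls depended on single arrays. Leaving out replicate 1 of the 3 h arrays gave 16 calls, leaving out their replicate 2 gave 14 and their replicate 3 gave 100. For the 6 h arrays the counts were 39 with replicate 1 left out, 10 with replicate 2 and 31 with replicate 3. Without the wide 12 h array (replicate 2) there were 209, and without the wide 48 h array 141. Higher genes called in all 6 of these fits were Ifgga2l1, Rtp4, Irgm, Cd244l1, Lamc1 and Urb1, and lower genes Il1a, Golm1 and Lsr; 16 higher and 10 lower genes were called in none. Lcn2 was called in 5 of the 6 fits, S100a8 in 3, S100a9 in 2, P2ry12 in 2, and Cldn5, Tek, Tnf and Gfap in 1 each. Rsad2, Il18bp, C1s, Slc39a14, Pprc1, Id4, Grin3a, Pltp and Bcar3 were among the genes called in none. Of 11 other settings, Gfap was called in 8 and Gbp7 in 9.

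For the called genes the 3 h arrays also held unequal positions. Replicate 1 at 3 h was the farthest of the 3 from the 6 h mean in 52 of the 64 higher genes (81.2%) and 22 of the 33 lower genes (66.7%), against 46.7% of all genes. Replicate 3 was the nearest in 48 of the 64 (75%) and 18 of the 33 (54.5%), against 39.5% of all genes.

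No marker of choroid plexus, meninges or erythrocytes was called, and their levels are given as values. Ttr, the transthyretin gene and defining product of the choroid plexus, read 1.35, 5.16 and 5.98 at 3 h and -0.65, 1.07 and -0.27 at 6 h, with early shams at -0.27 to 0.15, and was not called (-4.11 ± 1.29, adjusted p = 0.182). The mean level of the 8 measured choroid plexus markers ran from 0.07 to 1.25 at 3 h and from -0.16 to 0.14 at 6 h, and the list's median was -0.20 with no member called. Erythrocyte markers lay at 0.20 to 0.46 at 3 h and 0.28 to 0.72 at 6 h, above the early shams (-0.57 to -0.22) at both times. Meningeal and fibroblast markers had a median of -0.03 in the injured step and 0.37 in the sham step. The part of these tissues in the falls of Prom1, Lsr and Pltp, or in the other calls, was not tested.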

How the data were processed

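Affymetrix rat arrays were hybridised with cRNA from polyadenylated RNA of cortex, per the labels' protocols. The authors deposited log2 values made with RMA, per the submitters' processing notes; the base of the logarithm and the centring are not stated there and were read from the values, in which all 31099 probe sets have a median of 0 over the 16 arrays. Gene names came from the platform annotation, updated through RefSeq GRCr8: 20832 probe sets had 1 symbol and were averaged into 14218 genes, while 436 with several symbols, 9780 with no gene listed here and 57 controls were left out.

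limma 3.58.1 in R 4.3.3 was fitted to the 12 injured arrays in 4 time groups (8 residual degrees of freedom), and the contrast was 6 h minus 3 h. An exact permutation test of 3 against 3 arrays cannot go below p = 0.1, so none was used. Values against early shams, and the test of the injured minus the sham step, came from fits that include the shams. Deviations from the group means of same-numbered 3 and 6 h arrays had correlations of 0.0425, -0.0622 and 0.0594. With 3 arrays a time these cannot settle whether same-numbered arrays were handled together. The mean level of the hybridisation controls rose with the replicate number at 3 h (0.017, 0.211 and 0.233) and at 6 h (-0.016, 0.12 and 0.163). On simulated data for the 3 to 6 h comparison over 14218 genes, the fit recovered 93 of 100 genes changed by a log2 of 1 and 99 of 100 changed by 2, with 6 false calls. The changed genes were picked at random, with independent normal noise of each gene's own spread. In the data, 84 genes were at least 2-fold higher and 22 at least 2-fold lower, of which 28 and 7 were called. The recovery therefore does not hold for genes with a wide spread between arrays. The number of arrays limits the precision, and no 2 arrays were alike (smallest root mean square difference 0.202).

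Genes named are the 15 largest called rises and 12 largest called falls, up to 3 called genes with the largest differences of each list, 27 panel genes, and up to 10 receding and 10 starting genes; others are said to be chosen afterwards or are given only as list members. The comparison, the gene lists and the panel were chosen with earlier results of these data known. Promoters came from RefSeq. Alternatives covered centring, quantile normalization, probe set summary, the arrays in the fit, robust variance, a 2-fold floor, the replicate block and each array left out. Tables were made with Python 3.11.15.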

Additional observations from a re-analysis of the deposited data

How the results depend on the processing

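The number of calls moved with the normalization and with the arrays in the fit, and 26 of the 97 genes were called in none of the 6 fits that leave out 1 array of the step. Against 97 calls (64 higher, 33 lower), all 16 arrays gave 170 (113 and 57), the 6 arrays of the step alone 551 (361 and 190), the fit without the 48 h arrays 163 (110 and 53), quantile normalization 654 (430 and 224) and a 2-fold floor 35 (28 and 7). Leaving out 1 of the 6 arrays gave 10 to 100 calls, 6 to 72 higher and 4 to 28 lower. Chosen after seeing the data, leaving out the wide 12 h array gave 209 (142 and 67) and both wide arrays 323 (218 and 105). Median centring, the median of probe sets, robust variance, single probe sets and leaving out the wide 48 h array stayed within 1.5 times of 97. With the replicate number as a block there were 79 calls (49 and 30), of which 67 were shared. Whether the numbers pair the arrays is not stated in the labels. All 97 genes were also called with quantile normalization and with the 6 arrays alone.

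Of 1105 values of the 65 named genes, 892 kept their direction and side of the threshold, 193 lost the call, 15 gained it and 5 changed sign, none of these called: Il1b (-0.205 to 0.275 over the 6 leave-one-out fits, lowest without 6 h replicate 2), Arc (-0.0367 to 0.3867, lowest without 6 h replicate 3), Vegfa (-0.1175 to 0.035, at 0.025 without 3 h replicate 1 and 0.035 without 6 h replicate 3) and Cxcl2 (0.0283 with quantile normalization). The cause of these changes was not tested, and signal over background was not analysed here.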

Other observations

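Probe sets for which no gene was listed here took no part in the gene-level comparison. Tested one by one with the same limma model over all 31099 probe sets, 105 were called. No gene was listed for 18 of them, 15 higher and 3 lower at 6 h, against 9780 of all probe sets. Of these 15, 13 had every 6 h array above every early sham, and the largest difference was 2.72. Of the 3 lower, 2 had every 6 h array below every early sham, and the largest difference was -0.75. The same 6 h arrays chose these probe sets, and the share of all probe sets lying so was not counted, so nothing is read from these positions.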
